A study of Mus musculus with 6 samples.

Results

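Short noncoding RNA genes, 7 in number, were examined in messenger and other RNA bound to ribosomes of dopamine D2 receptor (D2) neurons of the mouse medial prefrontal cortex (mPFC): Gm23935, Rn7sk, Rn7s1, Rn7s2, Rmrp, Rpph1 and Terc. These 7 genes, of 47729 in the table, were picked by name, and they were chosen for their measured levels and for the shares they take of the libraries of the 2 groups. Their own differences between the groups are therefore given as a description, without a test. A mean of at least 1 FPKM (fragments per kilobase of transcript and library size, a level corrected for length) over the 6 libraries was reached by 6 of the 7 genes and by 12874 of all 47729. Each of the 7 genes had a single transcript in the table.

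The libraries came from adult male C57BL/6 mice, 2.5 to 3 months old. All carried a D2Cre transgene, a Cre-dependent Flag-tagged Cas9 (LSL-Flag-Cas9) and the RiboTag allele, which puts an epitope tag on a ribosomal protein in cells with Cre. The control group (Ctrl, 3 libraries) received an AAV for GFP in the mPFC, and the Gsk3sKO group (3 libraries) received an AAV with a guide RNA to Gsk3b and GFP. The tissue was taken 3 weeks later and the tagged ribosomes were immunoprecipitated (IP). D2Cre is a transgene on a bacterial artificial chromosome, and the IP takes ribosomes from every cell with Cre, with or without the AAV. From the labels it is not known if each library was 1 mouse or a pool, and a p-value then measures only the spread between these libraries.

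The targeted gene, Gsk3b, had 35.6, 53.8 and 56.5 FPKM in Ctrl and 36.9, 37.0 and 33.6 FPKM in Gsk3sKO, so the groups overlapped. Of the Ctrl libraries only Ctrl 1 lay within the range of Gsk3sKO, and the log2 difference was -0.40 (SE 0.19). Cas9 cuts the gene and need not lower its RNA, and the reason for the overlap was not tested. Drd2, which marks D2 neurons, ranged from 1.58 to 14.1 FPKM in Ctrl and from 5.96 to 8.32 FPKM in Gsk3sKO, lowest in Ctrl 1. The summed level of 6 neuron markers was 1980 to 2165 FPKM, against 39.7 to 56.8 FPKM for 4 astrocyte markers and 87.1 to 139 FPKM for 4 oligodendrocyte markers. The oligodendrocyte genes Mog and Mag were lower in Gsk3sKO at an unadjusted p, by 1.57 and 0.69 on the log2 scale, with an adjusted p of 0.607 and 0.702 in limma. The sums for 4 microglia markers were 7.23 to 12.4 FPKM and for 3 endothelial markers at most 29.5 FPKM. The part of these cell types in the results was not tested.

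The housekeeping RNAs among the 7 are structural or catalytic parts of particles of RNA and protein. Rn7s1 and Rn7s2 encode 7SL RNA, the scaffold of the signal recognition particle (SRP), which binds ribosomes that start to make secreted or membrane proteins and brings them to the endoplasmic reticulum. Rn7sk encodes 7SK RNA, a nuclear RNA that holds the transcription elongation factor P-TEFb inactive together with HEXIM proteins. Rpph1 encodes the catalytic RNA of ribonuclease P, which cuts the leader from precursor tRNA. Rmrp encodes the related RNA of ribonuclease MRP, which cuts precursor ribosomal RNA. Terc encodes the template RNA of telomerase. RNA polymerase III makes most of these RNAs, and they lack the poly(A) tail of messenger RNA, so they are seen mainly in libraries made from total RNA, as here.

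The label housekeeping did not hold for Gm23935, and the label abundant could not be checked for Terc. The GENCODE M21 annotation lists Gm23935 (ENSMUSG00000076258) as a predicted miRNA gene of 57 bases, at chr16:11144125-11144181 on the plus strand of GRCm38. It lies inside Zc3h7a, a protein-coding gene on the opposite strand, and in none of its exons. Zc3h7a itself had only 10.9 to 19.9 FPKM. Terc, at chr3:96414437-96414859 on the minus strand, was listed at 0 FPKM in all 6 libraries. Rn5s, a gene of 5S ribosomal RNA, was listed at 0 as well, which does not settle what the 0 of Terc means. Whether Terc was low in these cells or was missed was not tested.

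The sequences below are from the GENCODE transcripts of GRCm38. The Gm23935 family is shown first because it carries most of the signal and because reads inside these 57 bases cannot be told apart between identical copies. Capitals mark bases that differ from Gm23935.
Gm23935: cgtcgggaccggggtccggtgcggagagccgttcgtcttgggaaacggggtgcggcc
Gm24270: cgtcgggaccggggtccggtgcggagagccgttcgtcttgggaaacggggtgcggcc
Gm24245: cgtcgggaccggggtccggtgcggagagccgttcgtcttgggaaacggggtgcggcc
Gm24187: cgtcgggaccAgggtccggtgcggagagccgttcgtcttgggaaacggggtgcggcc
Gm23388: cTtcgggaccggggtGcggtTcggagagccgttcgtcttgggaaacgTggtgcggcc

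Gm23935 shared its whole sequence with Gm24270 and Gm24245, which lie on chromosomes 9 and 4. Gm24187 on chromosome 13 differed by 1 base and Gm23388 on chromosome 8 by 4. The remaining copy, Gm25911 on chromosome 1, matched with 1 mismatch and 1 gap and is not shown. The GC content of the 57 bases was 73.7%. Whether other RNAs, ribosomal RNA among them, hold this sequence was not tested.

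Rn7s1, at chr12:69159295-69159594 on the plus strand, and Rn7s2, at chr12:69361182-69361481 on the minus strand, have the same 300 bases. Reads inside them cannot tell the 2 genes apart.

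Rn7sk, at chr9:78175303-78175633 on the minus strand, is 331 bases long. Its first 60 bases are shown because the GATC motif of this 5′ hairpin is where HEXIM proteins are known to bind, and both matches are in capitals.
Rn7sk: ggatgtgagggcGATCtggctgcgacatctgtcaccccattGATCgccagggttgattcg

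GATC reads the same on both strands. At least 2 matches in the first 60 bases were held by 1.11% of the 141515 annotated transcripts of that length or more, and a match is no more than these letters.

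Gm23935 had the highest level of all gene totals in every library. Its level was 148027, 137332 and 53549 FPKM in Ctrl, and 56753, 48541 and 30098 FPKM in Gsk3sKO. Ctrl 1 and Ctrl 2 stood above the other 4 libraries, and Ctrl 3 lay between Gsk3sKO 1 and Gsk3sKO 2, so the groups overlapped. In such bulk libraries fewer cells of a type and less RNA per cell cannot be told apart. The mean was 112969 ± 51737 FPKM in Ctrl and 45131 ± 13651 FPKM in Gsk3sKO (SD, n = 3 each), a log2 difference of -1.24 with a standard error (SE) of 0.59. The median log2 difference of all gene totals was -0.06, and it was not subtracted from the differences given here. The next highest gene totals by mean level were AL626808.1, Gm24270, mt-Rnr2 and mt-Rnr1.

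**Figure D1:**
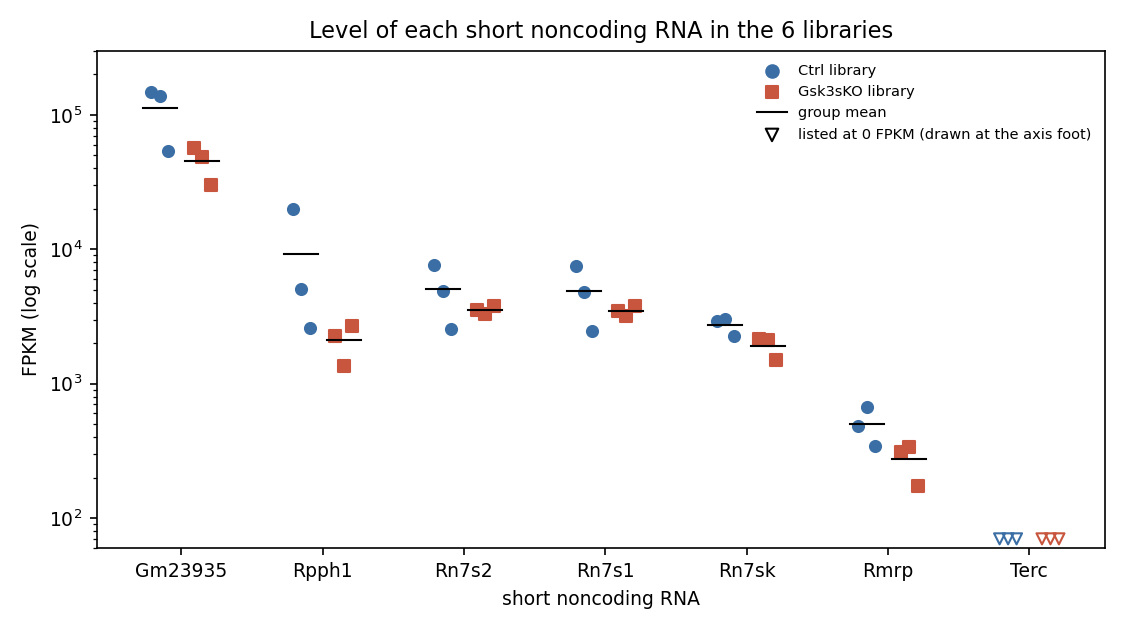
FPKM on a log scale for each of the 7 genes, with 1 point for each library, circles for Ctrl and squares for Gsk3sKO, and a line at the group mean. Gm23935 lies above the others in all 6 libraries, Terc is listed at 0, and only Rn7sk and Rmrp have all Gsk3sKO points below all Ctrl points.

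Its copies with a mean of at least 1 FPKM also had lower means in Gsk3sKO, at lower levels. The identical Gm24270 had 23948, 16171 and 6217 FPKM in Ctrl and 9505, 6090 and 3046 FPKM in Gsk3sKO. Gm23935 over Gm24270 was 5.97 to 9.88 among the libraries, although the 2 transcripts have the same bases. Gm24187 had 5205, 3909 and 2685 FPKM in Ctrl against 2418, 1808 and 1095 FPKM in Gsk3sKO, lower in every Gsk3sKO library. Gm24245, also identical, had 663 FPKM in Ctrl 1 and 15.1 to 60.5 FPKM in the other 5 libraries. With its 5 copies in the table summed, the family differed by a log2 value of -1.24 (unmoderated SE 0.56), and Gm23935 held 81.7 to 86.9% of the family's FPKM.

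Rpph1 (chr14:50807449-50807767, minus strand, 319 bases) had 19836, 5102 and 2579 FPKM in Ctrl, and 2268, 1349 and 2687 FPKM in Gsk3sKO. Ctrl 1 was far above the other 5 libraries, and Ctrl 3 was below Gsk3sKO 3. The mean was 9172 ± 9321 FPKM in Ctrl and 2101 ± 685 FPKM in Gsk3sKO, and the log2 difference was -1.66 (SE 0.66). Without Ctrl 1 it was -0.85. An annotated transcript of Ccnb1ip1 overlaps Rpph1 on the same strand and had no row of its own in the table used here, so its part in these values was not tested.

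Rmrp (chr4:43492788-43493058, minus strand, 271 bases) had 480, 675 and 346 FPKM in Ctrl and 311, 337 and 173 FPKM in Gsk3sKO. The groups did not overlap, with 346 against 337 FPKM at the nearest. The means were 501 ± 165 and 274 ± 88.5 FPKM, with a log2 difference of -0.88 (SE 0.31), or -0.57 without Gsk3sKO 3. Rmrp and Rpph1, the RNAs of sister enzymes, did not keep 1 ratio, since Rpph1 over Rmrp was 41.3 in Ctrl 1 and at most 15.6 in the other 5 libraries. A transcript of Ccdc107 overlaps Rmrp on the opposite strand and had at most 4.29 FPKM.

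Rn7sk had 2912, 3044 and 2263 FPKM in Ctrl, and 2133, 2098 and 1501 FPKM in Gsk3sKO. The groups did not overlap. The means were 2740 ± 418 and 1910 ± 355 FPKM, with a log2 difference of -0.53 (SE 0.22). Rn7sk has 11 copies in the table, of which 4 had a mean of at least 1 FPKM. Of these, Gm24447 (log2 difference -1.10, SE 0.27), Gm26315 (-0.82, SE 0.25) and Gm26035 (-0.79, SE 0.22) were also lower in every Gsk3sKO library. Gm24447 and Gm26315 match Rn7sk without a mismatch over 241 and 235 bases, so reads there cannot be told apart. The copies are therefore no separate support for the difference of Rn7sk. Rn7sk took 78.8 to 86.6% of the FPKM of this family.

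The 2 genes of 7SL RNA were nearest to equal between the groups. Rn7s1 had 7462, 4769 and 2468 FPKM in Ctrl, and 3499, 3207 and 3752 FPKM in Gsk3sKO. All 3 Gsk3sKO libraries lay inside the range of Ctrl, from Ctrl 3 at the foot to Ctrl 1 at the top. Rn7s2 had 7596, 4927 and 2549 FPKM in Ctrl, and 3559, 3304 and 3809 FPKM in Gsk3sKO. The log2 difference was -0.35 (SE 0.37) for Rn7s1 and -0.36 (SE 0.37) for Rn7s2. Without Ctrl 1 the differences were 0.02 (SE 0.31) and 0.0029 (SE 0.315), so that their sign rests on that library. Rn7s2 over Rn7s1 was 1.02 to 1.03 in the 6 libraries. The spread of Rn7s1 in Gsk3sKO (SD 273 FPKM) was smaller than in Ctrl (SD 2500 FPKM).

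Among the 6 genes with a level, 2 had every Gsk3sKO library below every Ctrl library (Rn7sk and Rmrp), against 8.3% of all gene totals. Both overlapped between the groups once each library was rescaled to the median ratio over gene totals, and also as a share of the library's summed FPKM.

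**Figure D2:**
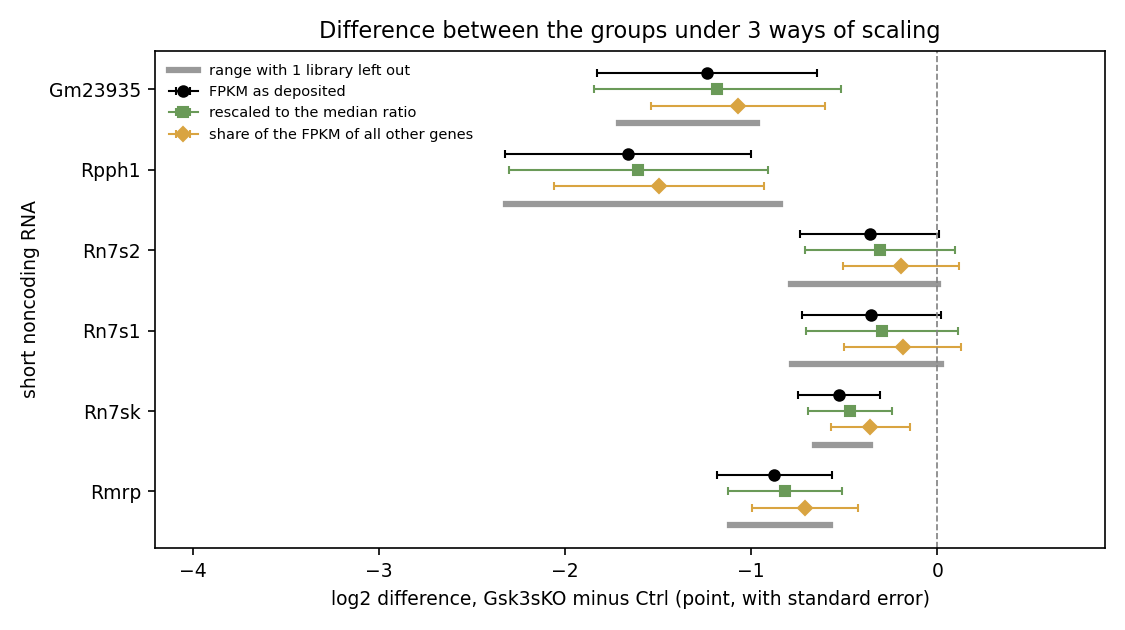
Log2 difference (Gsk3sKO minus Ctrl) with its standard error for the 6 genes with a level, under 3 ways of scaling, and a grey bar for the range when 1 library is left out. All points lie below 0, and for Rn7s1 and Rn7s2 the grey bar reaches 0.02 and 0.0029.

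Together the 7 genes made up 30.6, 28.3 and 15.4% of all FPKM in the Ctrl libraries. In the Gsk3sKO libraries they made up 16.2, 14.8 and 10.9%. The mean was 24.8 ± 8.21% against 14.0 ± 2.76%, a difference of -10.8 percentage points, and Ctrl 3 fell among the Gsk3sKO libraries. Gm23935 alone was 7.80 to 24.9% of the summed FPKM, which is 71.6 to 88.1% of what the 7 genes held. FPKM divides by length, so a gene of 57 bases weighs far more in this sum than in the reads. As a share of fragments (FPKM times length) the 7 genes took 0.680 to 2.26% in Ctrl and 0.751, 0.648 and 0.592% in Gsk3sKO. The FPKM of all other genes summed to 389273 ± 36031 in Ctrl and to 345704 ± 7118 in Gsk3sKO.

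**Figure D3:**
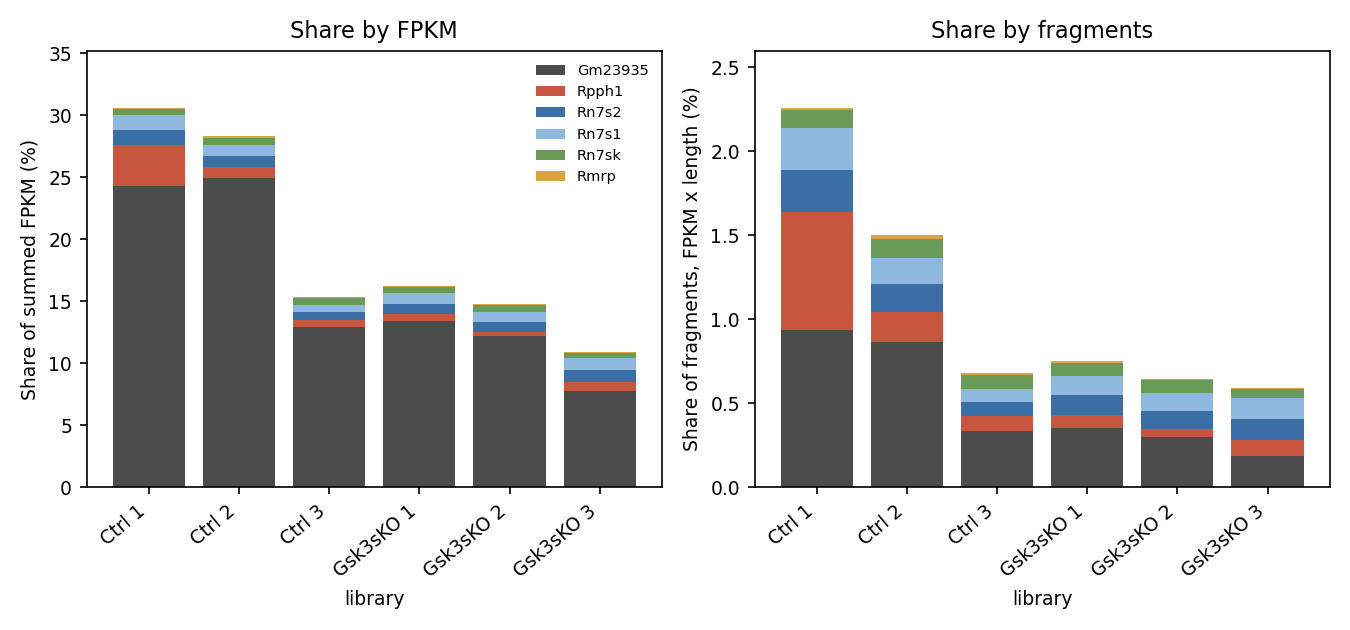
Share of each library's summed FPKM (left, percent) and of its fragments, taken as FPKM times transcript length (right, percent), stacked by gene for the 6 libraries. Ctrl 1 and Ctrl 2 stand above the other 4 libraries on both scales, and Rpph1 is 0.702% of the fragments in Ctrl 1 and at most 0.180% in the other 5 libraries.

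For the test of other genes, 844 of 12874 gene totals (6.56%) had an unadjusted p under 0.05 in limma, of which 669 were lower in Gsk3sKO (5.2%) and 175 higher (1.36%). An adjusted p under 0.05 was reached by 6 (0.0466%), by 20 without Ctrl 3, by 3 without Ctrl 1, by 1 without Ctrl 2 and by 0 without any 1 of the Gsk3sKO libraries. The split of 669 to 175 became 528 to 276 after rescaling to the median ratio, with a median log2 difference of -0.01. It became 373 to 427, with a median of 0.09, as a share of the FPKM of all genes but the 7.

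Of the proteins that form particles with these RNAs, 32 of 36 were tested. In limma 5 were lower at the unadjusted p, against 5.2% of all gene totals, 0 were higher and 0 passed an adjusted p. Their median log2 difference was -0.03. After either rescaling 5 passed at the unadjusted p, of which 4 were lower. Of the 7 proteins of the 7SK particle, Larp7, Mepce, Hexim1, Hexim2, Cdk9, Ccnt1 and Ccnt2, none passed at the unadjusted p. Hexim1, which binds the hairpin shown above, had 19.4, 26.5 and 22.7 FPKM in Ctrl and 24.5, 20.4 and 21.6 FPKM in Gsk3sKO, and the groups overlapped.

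Of 9 SRP proteins and receptors tested, 2 were lower at the unadjusted p. Srprb, the membrane subunit of the SRP receptor, had 7.05, 5.57 and 6.19 FPKM in Ctrl and 2.65, 2.58 and 1.89 FPKM in Gsk3sKO. Its log2 difference was -1.11 (SE 0.23), with a limma p of 0.0012 and an adjusted p of 0.379. Srp9, which binds the Alu part of 7SL RNA, had a log2 difference of -0.74 (SE 0.23; adjusted p = 0.671). Its partner Srp14 had 118 ± 22.7 FPKM in Ctrl and 94.3 ± 7.53 FPKM in Gsk3sKO, and the median of the 9 was 0.0053.

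Of 10 proteins of ribonucleases P and MRP tested, 2 were lower at the unadjusted p. Pop7, a subunit of both enzymes, had 11.9, 6.77 and 7.06 FPKM in Ctrl and 3.89, 3.50 and 1.09 FPKM in Gsk3sKO, a log2 difference of -1.38 (SE 0.37; adjusted p = 0.607). Rpp25l had a log2 difference of -1.01 (SE 0.35; adjusted p = 0.688). The median of the 10 was -0.03.

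Of 6 telomerase proteins tested, Nop10, a protein of H/ACA particles, was lower (log2 difference -0.85, SE 0.35; adjusted p = 0.750). Tert, the catalytic subunit, had at most 0.542 FPKM and was below the filter, and Terc was listed at 0.

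The other short noncoding RNAs of the list included Y RNAs, vault RNA, U1 and U3. They gave 15 gene totals for the test, of which 14 had a negative difference. In limma 6 were lower at the unadjusted p, 0 were higher and 0 passed an adjusted p. Over all gene totals 5.2% were lower. Of those with up to 200 bases 33.1% were lower and 79% had a negative difference. The median log2 difference of the 15 was -0.92. Several U1 genes and Rn7s6, a copy of Rn7s1, are among the 15, so they are not independent. Of the 6, the largest were Vaultrc5 (vault RNA; log2 difference -1.84, SE 0.45), Rnu3a (U3, which acts in ribosomal RNA processing; -1.18, SE 0.31) and Rny1 (a Y RNA of the Ro particle; -1.13, SE 0.38), with adjusted p of 0.506, 0.579 and 0.688. Vaultrc5 had 23.7, 24.6 and 10.4 FPKM in Ctrl and 8.97, 2.19 and 3.96 FPKM in Gsk3sKO, and Ctrl 3 was again the lowest of its group. The 6 became 3 without Ctrl 1 or without Ctrl 2, and 2 without Gsk3sKO 2.

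**Figure D4:**
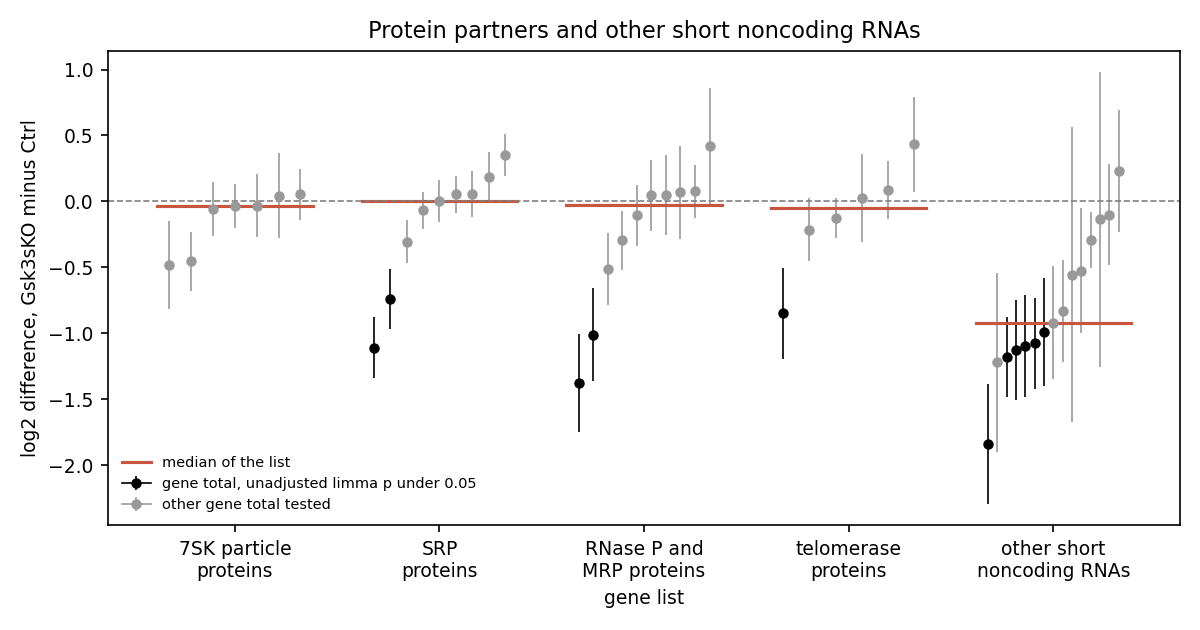
Log2 difference (Gsk3sKO minus Ctrl) with its standard error for each gene total of the 4 lists of protein partners and of the other short noncoding RNAs, with a line at each list's median. The medians of the protein lists lie between -0.05 and 0.0053, and that of the short noncoding RNAs is at -0.92.

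Among gene totals with a mean of at least 1 FPKM, the difference went with transcript length. Of 399 gene totals of up to 200 bases other than the members, 132 were lower (33.1%) and 9 higher at the unadjusted p, with a median log2 difference of -0.93. Only the members were taken out, so copies that share their reads, such as Gm24270 and Gm24447, stayed in the length classes. The 399 are therefore not independent of Gm23935 or of each other. Of 4584 gene totals over 4000 bases, 106 were lower (2.31%), with a median of -0.01. Between these, the median was -0.26 from 200 to 450 bases, -0.15 from 450 to 1000 and -0.11 from 1000 to 2000. Leaving out any 1 library kept the median of the short class at -0.67 to -1.10, and rescaling to the median ratio gave -0.89. It was -0.42 with a pseudocount of 5, and -0.09 with no filter, where 2002 short gene totals entered and 6.99% were lower. With no moderation of the variances 62 of the 399 were lower (15.5%). The lengths were grouped after the data had been seen, and what lies behind this was not tested.

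**Figure D5:**
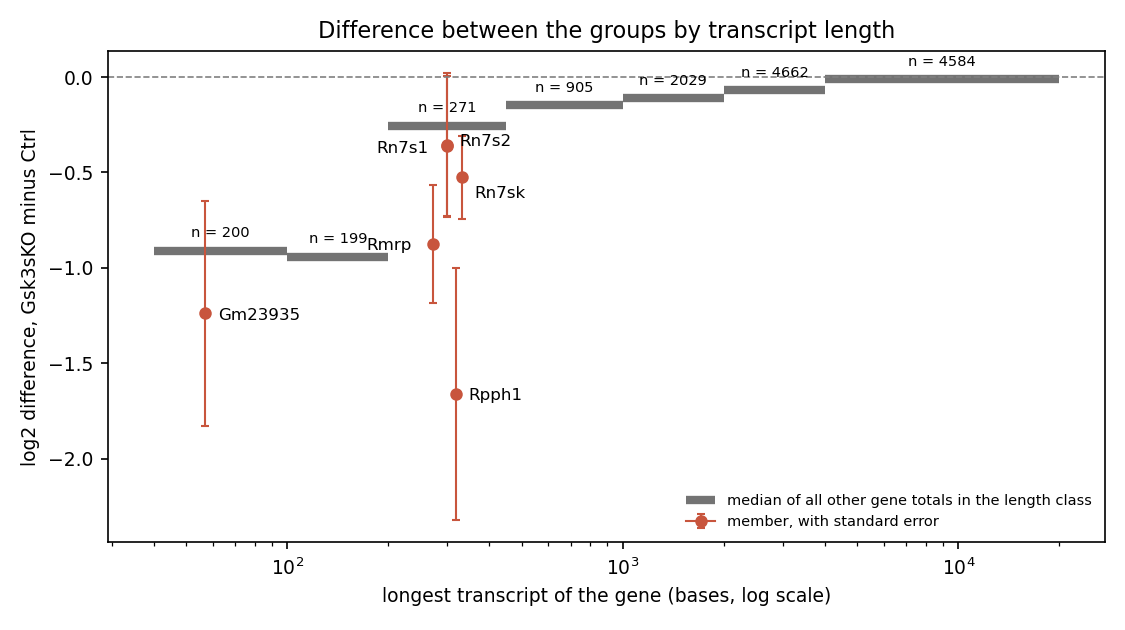
Log2 difference (Gsk3sKO minus Ctrl) against the length of the longest transcript of a gene on a log scale, with grey bars at the median of all other gene totals in 7 length classes and red points with standard errors for the 6 genes with a level. The bars lie at -0.91 up to 100 bases and at -0.94 from 100 to 200 bases, and then rise to -0.01 in the longest class. Rn7s1 and Rn7s2 lie close to the bar of their class.

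Relative to their length class, the members stood near its median or below it. Gm23935 was at -1.24 in a class with a median of -0.91. Rn7s1, at -0.35, and Rn7sk, at -0.53, were near the -0.26 of the class from 200 to 450 bases, and Rmrp and Rpph1 lay further below it. Pop7 and Rpp25l, at 988 and 856 bases, belong to a class with 9.39% lower at the unadjusted p. Nop10, at 1109 bases, is in a class with 6.46% lower. Srprb and Srp9, at 3166 and 3719 bases, are in the class from 2000 to 4000 bases, which had 3.63% lower and a median of -0.07.

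Of the listed nuclear long noncoding RNAs and ribosomal RNA genes, no gene total tested was lower at the unadjusted p. Whether Gm23935 holds ribosomal RNA sequence was not tested, and it is in neither list. Of 5 nuclear long noncoding RNAs tested 0 passed in limma, and Malat1 had 524 ± 138 FPKM in Ctrl and 597 ± 273 FPKM in Gsk3sKO. Of 6 gene totals of ribosomal RNA, the mitochondrial mt-Rnr1 and mt-Rnr2 were higher at the unadjusted p, with log2 differences of 1.10 (SE 0.38; adjusted p = 0.688) and 0.88 (SE 0.33; adjusted p = 0.709). Gm42418, a gene model on a ribosomal RNA repeat, had a log2 difference of -0.20 (SE 0.22). The other gene totals of this list were Gm26917 at -0.69 (SE 0.34), Rn18s-rs5 at -2.01 (SE 1.06) and AY036118 at 0.71 (SE 0.37), which did not pass at the unadjusted p. The list's 2 calls became 1 without Gsk3sKO 2 and 3 without Ctrl 3.

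Over the 6 libraries the genes most like Gm23935 were Mir6236 (Pearson's r = 0.998 on log2(FPKM + 1)), Map4k5 (0.992) and Ctage5 (0.991). The genes most like Rn7sk were Kremen1 (0.990), Gm25911 (0.986) and Tceb1 (0.985). Of these, Gm25911 is a copy of Gm23935, with 96.5% identity over 57 aligned bases. With Gm23935, r was 0.964 for Rn7sk and 0.922 for Rmrp, but 0.783 for Rpph1 and 0.733 for Rn7s1. These r values describe 6 libraries that fall into 2 groups and carry no test.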

How the data were processed

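RNA bound to tagged ribosomes was sequenced in 6 libraries after immunoprecipitation, with libraries from total RNA made by a stranded kit. The authors deposited 1 table of FPKM for 115220 transcripts, with the fold ratio and the p-value and q-value of their own comparison, which were not used here. The submitters' processing notes name HISAT2 2.1.0, SAMtools 1.9, StringTie 1.3.4d and GRCm38. The annotation release is not given in the sources used here. Of the transcripts, 983 had no match in GENCODE M21, and 0 columns of other samples were left out. Depth is unknown: taking 1 fragment as the unit, 16.7 to 35.2% of low values came within 0.02 of whole.

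FPKM were summed by gene, filtered to a mean of at least 1 (12874 gene totals) and tested as log2(FPKM + 1) with limma 3.58.1 in R 4.3.3 (trend, Benjamini-Hochberg over all gene totals, 2-sided, threshold 0.05), which understates changes of low genes. The script was tested on simulated data. The members and lists were chosen with earlier results of these data known. Every member was named, and of each list the genes past an adjusted p and the 3 with the largest difference among those at an unadjusted p under 0.05; copies are GENCODE transcripts with at least 90% identity by BLAST 2.17.0 over at least 40 bases and 60% of the member. The longest transcript gave a gene's length. Alternatives changed the pseudocount, filter, scaling, replicate block, moderation and libraries.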

Additional observations from a re-analysis of the deposited data

How the results depend on the processing

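FPKM without counts limits what these 6 libraries show, since the fragments behind a value are unknown and identical gene models share reads. The count of gene totals past an adjusted p was 6 and became 3 with a pseudocount of 0.1, 2 after rescaling to the median ratio, and 0 with a pseudocount of 5, with no filter, with a mean FPKM of at least 5, with no moderation of the variances and with the replicate number as a block. It ranged from 0 to 20 with 1 library left out. The called protein partners went from 5 to 3 with a mean FPKM of at least 5 and with no moderation. The called short noncoding RNAs went from 6 to 3 with no moderation and ranged from 2 to 9 with 1 library left out. The called ribosomal RNA genes went from 2 to 0 with no filter and with no moderation, and ranged from 1 to 3 with 1 library left out. The called nuclear long noncoding RNAs, 0 in limma as reported, ranged from 0 to 1. Lower gene totals of up to 200 bases went from 132 of 399 to 62 of 399 with no moderation, and to 83 of 168 (49.4%) with a mean FPKM of at least 5, both chosen after seeing the data. The share of the members differed by -10.8 points of summed FPKM and by -0.816 points of fragments. The log2 difference reversed to 0.0202 for Rn7s1 and 0.0029 for Rn7s2 without Ctrl replicate 1, and with 1 library left out it ranged from -0.78 to 0.02 for Rn7s1 and from -0.78 to 0.0029 for Rn7s2. Over the gene totals tested, deviations of libraries with equal replicate numbers had correlations of -0.03, -0.01 and -0.08. With the replicate number as a block 821 gene totals were called against 844. For the members the block lowered the SE, from 0.59 to 0.37 for Gm23935, 0.31 to 0.15 for Rmrp and 0.22 to 0.17 for Rn7sk. It went from 0.66 to 0.55 for Rpph1, 0.37 to 0.34 for Rn7s1 and 0.37 to 0.33 for Rn7s2. Whether the replicate numbers pair the libraries is not settled by these values. The cause of these changes was not tested.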
